A study of Mus musculus with 8 samples.

Results

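Genes of the endoplasmic reticulum (ER) stress response and of protein folding in the ER were examined for binding of NF-YA in muscle stem cells (MuSCs). The set consisted of 60 genes named by function, and a peak was counted for a gene when the deposited peak table carried that gene's symbol. Of the 60 genes, 34 had a peak, with 42 peaks among the 7196 peaks of the whole table. All 34 genes had a peak whose centre lay within 1000 bases of the gene start.

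NF-YA was profiled by CUT&RUN, in which a nuclease tethered to an antibody releases the DNA around a bound protein, with 400000 cultured, activated MuSCs per reaction. Cells came from C57BL/6 mice of 2 genotypes, with 2 NF-YA libraries each. In Taf4asKO cells *Taf4a*, which encodes a subunit of the general transcription factor TFIID, was inactivated by a tamoxifen-inducible Cre driven from *Pax7*, a gene active in MuSCs. Both groups carried floxed *Taf4a* alleles, with or without a *Pax7-zsGreen* reporter. Controls were litter mates that either lacked the Cre allele or carried it, and the labels do not say whether they received tamoxifen. The floxed *Taf4a* alleles remove some exons only after recombination, so that cells which escaped recombination would keep the gene. The labels give no age, the study used adult mice of both sexes, and the labels do not say whether replicates came from separate animals or cultures, so that p-values measure only the spread between these libraries. The 4 IgG libraries among the 8 in the series were not analysed here. CUT&RUN does not measure RNA, and therefore neither the loss of *Taf4a* nor the markers of MuSCs could be checked in these data.

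The values are reads in a peak as normalised by the authors with DESeq2, and are called normalised reads. The 4 libraries held between 111252 and 735063 reads in peaks, and both control libraries held fewer than both Taf4asKO libraries, so that this depth and genotype cannot be told apart. A value of 1 in control replicate 2 stood for less than 1 read, since 1 read was worth 3.26 there. In control replicate 1, Taf4asKO replicate 1 and Taf4asKO replicate 2 a read was worth 1.04, 0.431 and 0.681. Values of weak peaks therefore moved in coarse steps in control replicate 2.

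The unfolded protein response starts from sensors in the ER membrane. ATF6 is cut by proteases to release a transcription factor, IRE1 splices the mRNA of XBP1, and PERK, encoded by *Eif2ak3*, phosphorylates eIF2 so that ATF4 is translated. NF-Y binds the pentamer CCAAT, and in promoters of ER chaperones this pentamer forms one end of the ER stress element, whose other end, CCACG, is contacted by ATF6 or XBP1 once NF-Y is in place. A second form of the element carries the pentamer in the reverse reading, ATTGG, close to CCACG.

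Of the sequence features examined, the 2 forms of the ER stress element had the largest ratios between their share of member peaks and their share of all peaks, and their matches are therefore shown. The genome (GRCm38, mm10) was searched within 1000 bases of each member's start on both strands for CCAAT and CCACG separated by 9 bases. There were 12 matches at 10 genes, and 11 of the 12 lay inside an NF-YA peak. Each match is printed 5′ to 3′ in the reading that starts with CCAAT, with both ends of the element in capitals and the spacer in lower case. The position in bases from the gene start is that of the middle of CCAAT, and negative numbers are upstream.
*Hspa5*, chr2:34772025-34772043, along the gene, position 57: CCAATcggaggcctCCACG
*Calr*, chr8:84847075-84847093, against the gene, position -143: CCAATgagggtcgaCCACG
*Canx*, chr11:50325800-50325818, along the gene, position -143: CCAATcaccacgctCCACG
*Dnajc3*, chr14:118937827-118937845, along the gene, position -147: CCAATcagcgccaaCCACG
*Derl3*, chr10:75893140-75893158, against the gene, position -257: CCAATagcaaggacCCACG
*Derl3*, chr10:75893242-75893260, against the gene, position -155: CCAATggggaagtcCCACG
*Syvn1*, chr19:6046532-6046550, along the gene, position -42: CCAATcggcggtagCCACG
*Xbp1*, chr11:5520906-5520924, along the gene, position 249: CCAATcgcggacggCCACG
*Hsp90b1*, chr10:86705638-86705656, along the gene, position -145: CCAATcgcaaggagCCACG
*Hsp90b1*, chr10:86705533-86705551, against the gene, position -26: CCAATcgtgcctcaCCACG
*Creld2*, chr15:88819520-88819538, against the gene, position -110: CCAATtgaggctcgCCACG
*Pdia6*, chr12:17266491-17266509, along the gene, position -52: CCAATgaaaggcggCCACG

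The matches at *Hsp90b1*, which encodes the ER form of HSP90, and at *Creld2* lay in peaks that the table assigned to the neighbouring genes *Ttc41* and *Alg12*. The match at *Pdia6*, a protein disulfide isomerase, was the one that lay in no peak. The second form of the element, with 1 base between ATTGG and CCACG, had 6 matches at 5 genes, and all 6 lay inside NF-YA peaks. They are shown because they bring the number of members with either form to 15, and are read from ATTGG with both ends in capitals.
*Manf*, chr9:106892039-106892049, against the gene, position -62: ATTGGtCCACG
*Hyou1*, chr9:44379364-44379374, against the gene, position -118: ATTGGgCCACG
*Hyou1*, chr9:44379465-44379475, against the gene, position -17: ATTGGtCCACG
*Dnajb11*, chr16:22857852-22857862, along the gene, position 9: ATTGGcCCACG
*Herpud1*, chr8:94386377-94386387, along the gene, position -59: ATTGGgCCACG
*Ufd1*, chr16:18811654-18811664, along the gene, position -123: ATTGGtCCACG

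Among all 7196 peaks the first form was rare. It was present in the central 200 bases of 18 peaks, or 0.250% of all peaks, and 7 of the 18 belonged to members, which was 16.7% of the 42 member peaks. Another 2 of the 18 were the peaks at the starts of *Hsp90b1* and *Creld2*. The second form was present in the central 200 bases of 8 peaks, and 4 of the 8 belonged to members. Not every match inside a peak was in its central 200 bases, as the element of *Manf* lay toward the downstream edge of a peak of 576 bases.

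The single pentamer was found at similar shares in member peaks and in all peaks. CCAAT on either strand was found in the central 200 bases of 85.7% of member peaks (36 of 42) and of 78.5% of all peaks. Among peaks within 1000 bases of a start the shares were 89.5% for members and 87.1% for all genes. Pentamers occurred at least 2 times in 60.5% of member start peaks and in 49.6% of all start peaks. CCACG on either strand, alone or within an element, was in 73.7% of member start peaks and in 36.5% of all start peaks. These shares are descriptions with no test, and member start peaks were also wider, with a median width of 282 bases against 219.

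**Figure D1:**
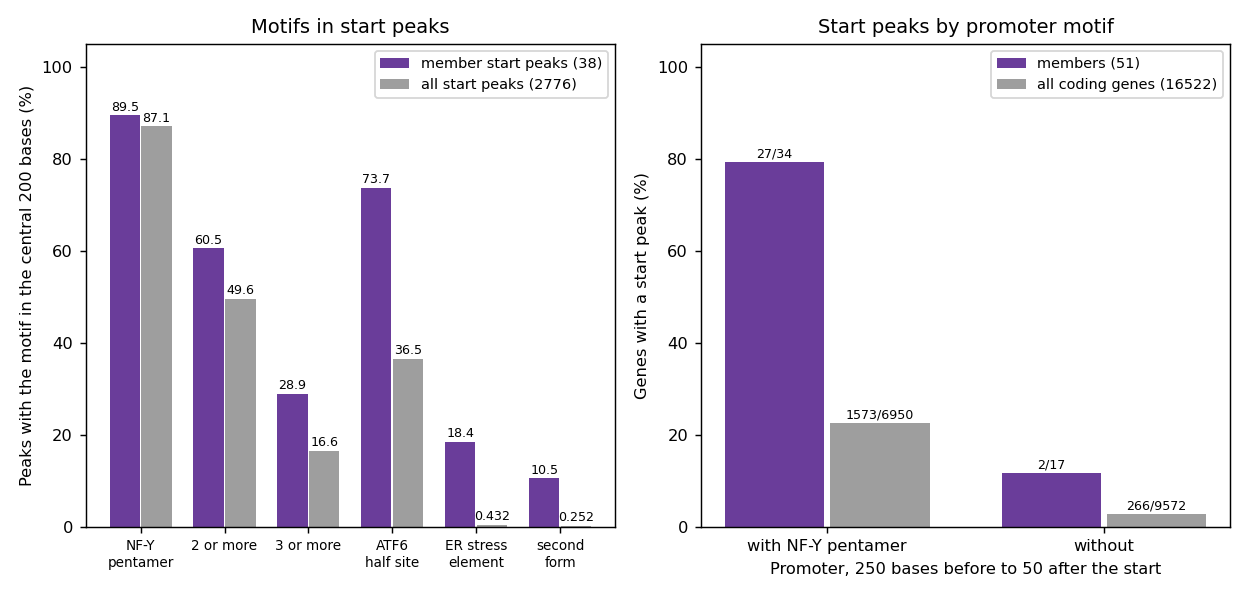
Left, percentage of start peaks (centre within 1000 bases of the gene start) with each motif in the central 200 bases, for the 38 start peaks of members and all 2776 start peaks. Right, percentage of genes with a start peak, split by whether the promoter holds the NF-Y pentamer, for the 51 members and 16522 coding genes with a RefSeq promoter sequence, with numbers of genes above the bars. The pentamer was about as frequent in member start peaks (89.5%) as in all start peaks (87.1%), whereas the ER stress element was in 18.4% against 0.432%.

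Within the 34 member start peaks that had a pentamer in the central 200 bases, 75 pentamers were counted. Of these, 63 lay upstream of the gene start and 52 within the first 200 bases upstream, with a median position of -87. Because only the central 200 bases were searched, these positions depend on the peak centres. The median centre was at -104 in member start peaks and at -71 in all start peaks. They read as CCAAT along the gene in 39 cases and as ATTGG in 36. The pentamer closest to the peak centre was a median of 16.5 bases away. Neighbouring pentamers of one peak were a median of 41 bases apart.

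The strongest member peak, at *Eif2ak3*, held 5 pentamers in its searched centre, and no ER stress element was found in the peak. The RefSeq promoter of *Eif2ak3*, which lies within this peak, held 6 pentamers, so that others lay outside the centre. The stretch of the centre from -342 to -164 (chr6:70844173-70844351, forward strand) is shown with every pentamer in capitals. It is an example of dense pentamers in the same orientation.
*Eif2ak3*: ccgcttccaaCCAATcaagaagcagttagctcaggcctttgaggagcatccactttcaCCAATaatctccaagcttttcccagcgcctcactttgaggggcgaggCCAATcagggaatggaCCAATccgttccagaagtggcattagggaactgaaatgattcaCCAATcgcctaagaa

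All 5 pentamers of this *Eif2ak3* stretch read as CCAAT along the gene, and the orientation of those elsewhere in the peak was not examined. At *Pdia4*, a disulfide isomerase, and at *Hspa5* the pentamers faced both ways, as is seen in the *Pdia4* stretch from -186 to -3 (chr6:47813433-47813616, reverse strand) and the *Hspa5* stretch from -104 to -52 (chr2:34771866-34771918, forward strand). The start used for *Hspa5* is the one in the peak table, 120 bases upstream of the RefSeq start, and its ER stress element lies between these starts.
*Pdia4*: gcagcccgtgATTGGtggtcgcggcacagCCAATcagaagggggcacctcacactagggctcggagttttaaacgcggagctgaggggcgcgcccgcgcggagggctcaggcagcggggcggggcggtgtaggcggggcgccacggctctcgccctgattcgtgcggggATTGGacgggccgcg
*Hspa5*: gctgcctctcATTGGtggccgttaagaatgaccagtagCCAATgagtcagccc

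The members whose tested peaks had the largest decreases in Taf4asKO, *Chac1* and *Sdf2l1*, are shown for comparison, from -147 to -32 (chr2:119351082-119351197, forward strand) and from -178 to -12 (chr16:17132395-17132561, reverse strand). Both had pentamers in both orientations and neither had an ER stress element of either form.
*Chac1*: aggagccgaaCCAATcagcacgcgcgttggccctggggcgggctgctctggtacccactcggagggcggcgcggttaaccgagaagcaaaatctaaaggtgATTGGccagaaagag
*Sdf2l1*: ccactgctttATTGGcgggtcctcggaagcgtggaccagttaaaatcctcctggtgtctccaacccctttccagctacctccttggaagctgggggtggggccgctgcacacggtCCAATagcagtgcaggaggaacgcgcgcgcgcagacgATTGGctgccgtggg

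**Figure D2:**
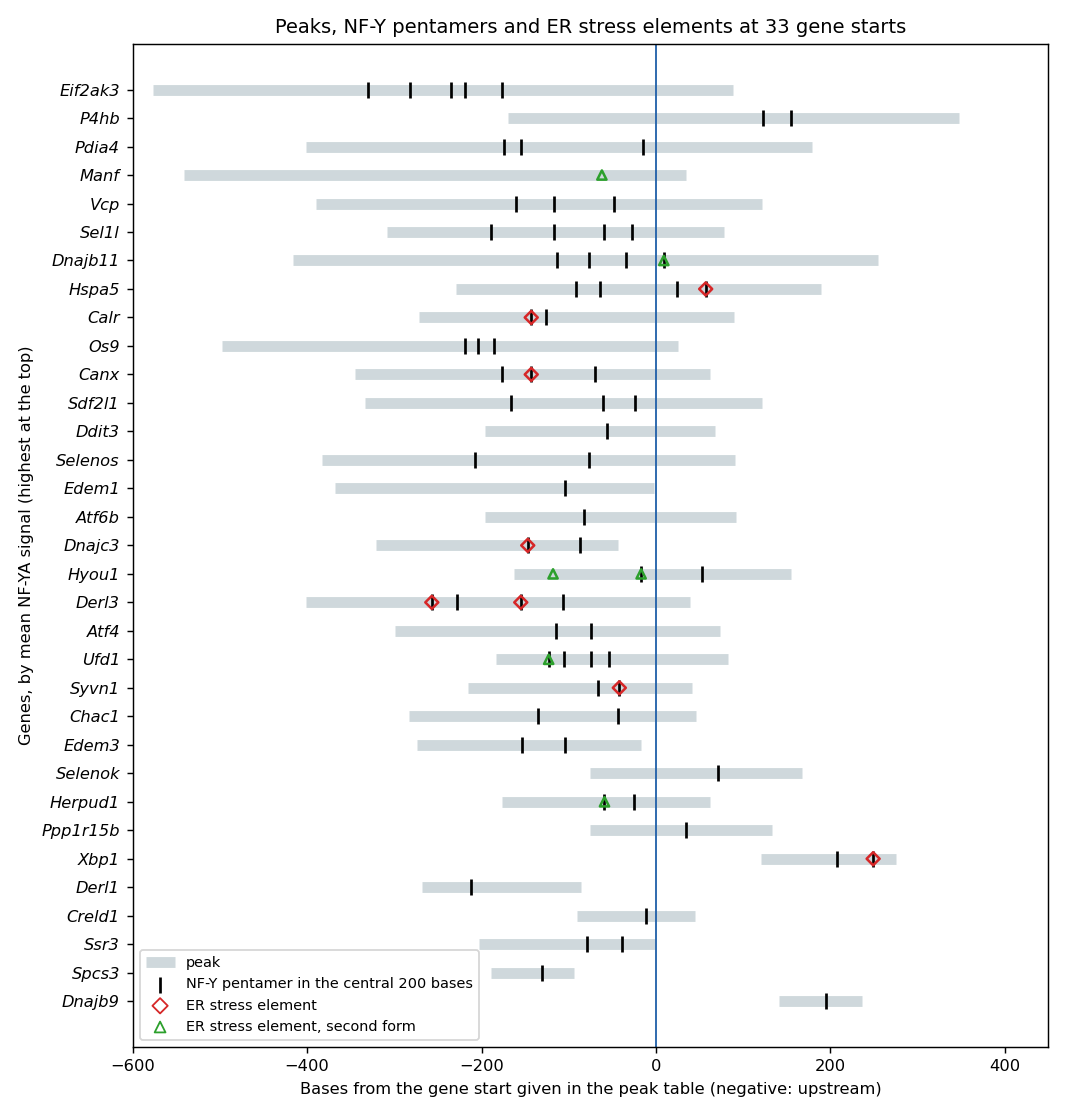
Positions in bases from the gene start (x axis, negative upstream) of the peaks (grey bars), of NF-Y pentamers in the central 200 bases of each peak (black ticks) and of both forms of the ER stress element (diamonds and triangles) for the 33 member start peaks with a mean of at least 10 normalised reads, with the strongest at the top. Most of these central pentamers lie within 200 bases upstream of the start (52 of 75 over all member start peaks with one), whereas the central ones of *P4hb*, *Xbp1*, *Dnajb9*, *Selenok* and *Ppp1r15b* lie downstream.

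The difference in start peaks between members and coding genes in general is given as a description with no test. Start peaks were present at 56.7% of members (34 of 60) and at 11.1% of the 16522 coding genes in the RefSeq promoter table (GRCm38.p6, 250 bases before to 50 bases after the start). By role, they were present at 13 of 15 genes of ER-associated degradation, at 10 of 14 chaperones and co-chaperones, at 5 of 9 sensors, transcription factors and proteases, at 2 of 5 targets of the PERK arm, at 2 of 6 genes of disulfide formation and at 2 of 11 genes of translocation and signal peptide cleavage. Of the 51 members in the promoter table, 34 had a pentamer in the promoter, and 27 of these 34 (79.4%) had a start peak. Among all coding genes with a promoter pentamer the share was 22.6%. Without a pentamer 2 of 17 members (*Ufd1* and *Xbp1*) had a start peak, which was 11.8%, against 2.78% of all coding genes. These windows are set by the RefSeq start, which for *Ufd1* lies 515 bases downstream of the start used in the peak table, so that the 4 pentamers of its peak lie upstream of the window. The pentamers of the *Xbp1* peak, at 208 and 249, lie downstream of the window. The RefSeq and table starts were more than 100 bases apart at 5 of the 51 members (*Hspa5*, *Dnajb9*, *Pdia3*, *Ufd1* and *Spcs2*). The first form of the ER stress element was in the promoter of 9 of 51 members, or 17.6%, and of 28 of 16522 coding genes.

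No peak carried the symbol of 26 members. These were the chaperones and co-chaperones *Hsp90b1*, *Sdf2*, *Dnajc10* and *Creld2*, the disulfide isomerases *Pdia3*, *Pdia5* and *Pdia6* with the oxidase *Ero1l*, and *Edem2* and *Nploc4* of ER-associated degradation. Among sensors and proteases they were *Atf6*, *Ern1*, which encodes IRE1, *Mbtps1* and *Mbtps2*. The other members without a peak were the stress-induced genes *Trib3*, *Ppp1r15a* and *Asns*, the translocon genes *Sec61a1*, *Sec61b*, *Sec61g*, *Sec62* and *Sec63*, *Ssr1* and *Ssr2* of the translocon-associated complex, and the signal peptidase genes *Spcs1* and *Spcs2*.

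Some of these 26 genes shared a start region with a neighbour to which the table gave the peak. *Hsp90b1* had a peak 164 bases upstream of its start with 331 and 378 normalised reads in the controls and 279 and 294 in Taf4asKO. *Creld2* had one 177 bases upstream with 168 and 170 in the controls and 127 and 167 in Taf4asKO. *Pdia3* had one centred 19 bases downstream of its start with 66 and 72 in the controls and 61 and 62 in Taf4asKO, assigned to *Catsper2*. In these 3 peaks both Taf4asKO values lay below both control values. A peak of *Xrra1* 4467 bases downstream of the *Spcs2* start was the nearest to that gene, and the RefSeq start of *Spcs2* lies 4579 bases downstream of the same point. With all peaks counted whatever their assigned gene, 37 of 60 members had a peak within 1000 bases and 22 had none within 10000 bases. At 4 members with a start peak, the coding start of another gene also lay within 1000 bases of their start. These were *Dnajb11* with *Tbccd1*, *Derl2* with *Mis12*, *Ufd1* with *Cdc45* and *Spcs3* with *Asb5*.

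The signal at members spanned a wide range. The mean over 4 libraries ran from 1.00 normalised read in a second peak of *Eif2ak3* to 527.75 in its main peak, with a median of 105.5 over the 42 member peaks against 17.2 over all peaks. Because reads in a peak grow with its width, the level per 100 bases of peak is given as well, and its median was 33.7 in member peaks and 9.95 in all peaks. Among start peaks these medians were 36.1 and 24.3 normalised reads per 100 bases. The pentamer itself went with strength, being in 92.7% of all peaks that averaged 100 or more normalised reads.

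**Figure D3:**
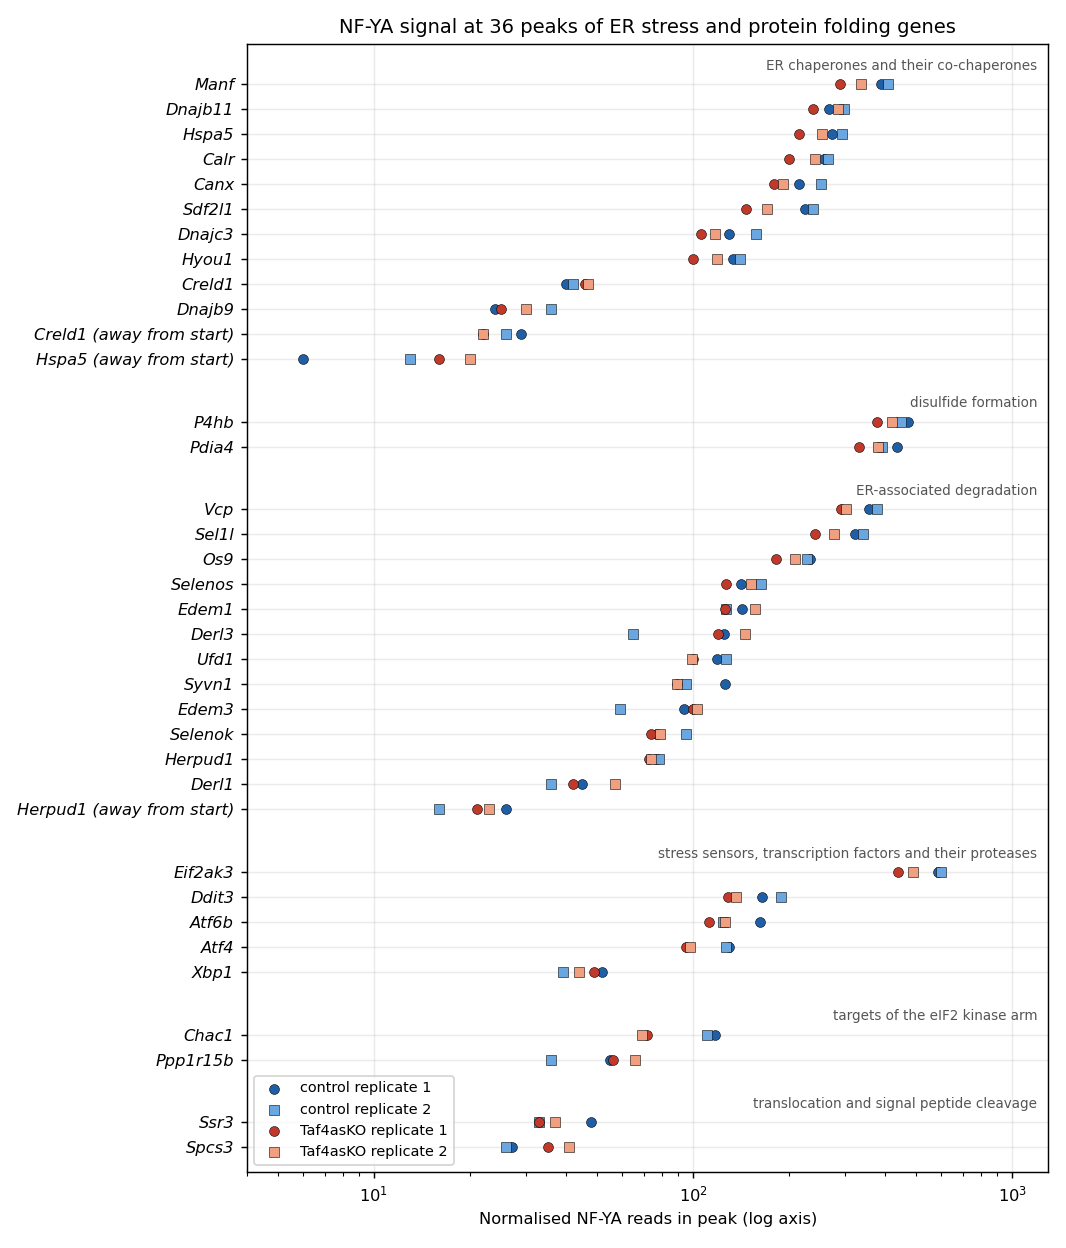
Normalised NF-YA reads (x axis, log scale) of the 36 member peaks with a mean of at least 10, grouped by role and ordered by mean within each role, with 1 point per library. Among the strong peaks at the top of most groups the red Taf4asKO points lie to the left of the blue control points, with no overlap in 16 of the 21 peaks with a mean of at least 100, whereas weak peaks overlap or differ in either direction.

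Genotypes were compared with limma on log2(normalised reads + 1) for the 4746 peaks with a mean of at least 10, of which 36 belonged to members. With Benjamini-Hochberg adjustment over all tested peaks, limma called 0 of the 36 member peaks at an adjusted p under 0.05, where 0.948% of all tested peaks were called. At an unadjusted p under 0.05, limma gave 8 member peaks, all lower in Taf4asKO (*Chac1*, *Sdf2l1*, *Eif2ak3*, *Manf*, *Sel1l*, *Ddit3*, *Vcp* and *Atf4*), and 10.9% of all tested peaks were lower at this level. With each library scaled to the same total instead, 10 member peaks reached this level, of which 5 were lower, against 6.87% of all tested peaks that were lower. With each scaled to the same median 19 did, all lower, against 20.2%. Over all tested peaks that averaged 100 or more this share was 27.0%, and 7 of the 8 were such peaks, or 7 of the 21 tested member peaks in that range. None of the 36 tested member peaks differed by more than 2-fold between group means, where 7.42% of all peaks with a mean above 10 did.

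In many member peaks the values of the 2 genotypes did not overlap, which was also frequent among other peaks of like strength. Both Taf4asKO values lay below both control values in 20 of 36 member peaks, against 28.6% of all tested peaks, and above them in 5 of 36, against 19.3%. Among tested peaks with a mean of at least 100, 16 of 21 member peaks lay below, against 59.0% of all 971 such peaks. The median log2 difference (Taf4asKO minus control) was -0.23 over the 36 member peaks and -0.04 over all tested peaks. For means of 100 or more it was -0.30 in members and -0.22 in all, and for means of 200 or more it was -0.27 in both. Other scalings of the libraries moved log2 differences together, by a median of -0.12 over all peaks with equal medians and of 0.14 with equal totals, and the median of member peaks minus that of all tested peaks was -0.18 under each of 3 scalings.

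**Figure D4:**
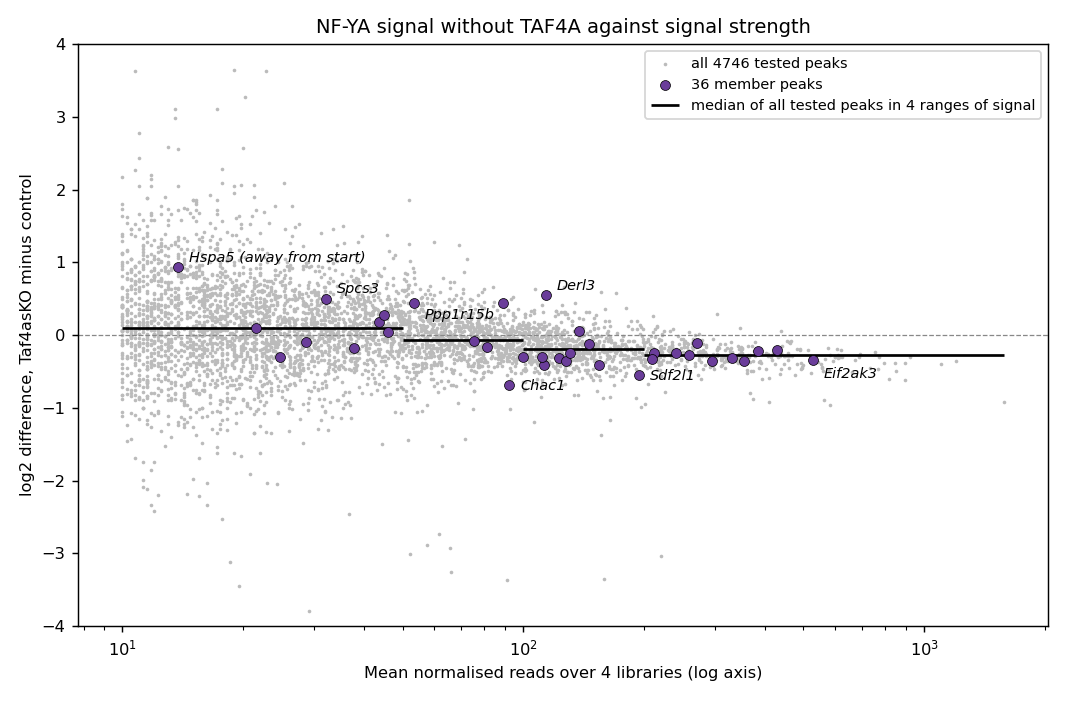
Log2 difference between Taf4asKO and control (y axis) against the mean normalised reads over 4 libraries (x axis, log scale) for all 4746 tested peaks (grey) and the 36 member peaks (purple), with black lines at the median of all tested peaks in 4 ranges of signal. The median of all tested peaks passes from 0.10 at means of 10 to 50 to -0.27 at means of at least 200, and member peaks lie on both sides of these lines, with the named *Chac1* and *Sdf2l1* below them and *Derl3*, *Spcs3*, *Ppp1r15b* and the *Hspa5* peak away from the start above.

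The difference between genotypes moved with the strength of the peak and with a difference between the Taf4asKO libraries. In 31 of 36 member peaks Taf4asKO replicate 1, the library with the most reads in peaks, was lower than replicate 2, by a median of 0.16 on the log2 scale, whereas control replicate 1 was lower than control replicate 2 in 19 of 36. Taf4asKO replicate 1 was also the lower in 857 of the 971 tested peaks that averaged 100 or more. The part of reads in peaks in the genotype difference cannot be told apart from genotype. Without Taf4asKO replicate 1 the median log2 difference of the member peaks was -0.12.

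Of the ER chaperones and their co-chaperones, 12 peaks of 10 genes were tested, with a median log2 difference of -0.29. *Hspa5*, which encodes the main HSP70 of the ER lumen (BiP), had 272 and 294 normalised reads in the controls and 215 and 254 in Taf4asKO at its start (chr2:34771741-34772159). Its log2 difference was -0.27 ± 0.14 (SE, limma, adjusted p = 0.334, n = 2 per genotype). Both Taf4asKO values lay below both controls, by 17.1% on average, and without Taf4asKO replicate 1 the log2 difference was -0.15.

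A weak second peak of *Hspa5*, 1664 bases upstream of the start and without a pentamer in its centre, had the largest increase among tested member peaks. It had 6 and 13 normalised reads in the controls and 16 and 20 in Taf4asKO, with a log2 difference of 0.93 ± 0.46 (SE, limma, adjusted p = 0.313). The control values stood for 5.74 and 3.99 reads, so that this difference rests on few reads. Without control replicate 1 it was 0.43, and without control replicate 2 it was 1.43.

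*Manf*, a secreted cofactor of BiP, had 389 and 408 normalised reads in the controls and 288 and 335 in Taf4asKO, and its log2 difference was -0.36 ± 0.13 (SE, limma, adjusted p = 0.192), or -0.48 with equal library medians, where limma called it (adjusted p = 0.0473). *Dnajb11*, a co-chaperone that passes unfolded proteins to BiP, had 267 and 297 in the controls and 237 and 285 in Taf4asKO, with a log2 difference of -0.12 ± 0.14 (SE, limma, adjusted p = 0.697). The genotypes were apart at *Manf* and overlapped at *Dnajb11*.

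The lectin chaperones calreticulin and calnexin, which hold glycoproteins during folding, both had an ER stress element in the peak. *Calr* had 257 and 264 normalised reads in the controls and 200 and 242 in Taf4asKO, with a log2 difference of -0.24 ± 0.15 (SE, limma, adjusted p = 0.394). *Canx* had 215 and 251 in the controls and 179 and 191 in Taf4asKO. At both genes the Taf4asKO values were the lower, without overlap. The log2 difference of *Calr* was -0.11 without Taf4asKO replicate 1, and that of *Canx*, which was -0.33, was -0.22 without control replicate 2.

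*Sdf2l1*, a partner of *Dnajb11* in the BiP cycle, had 224 and 238 normalised reads in the controls and 147 and 170 in Taf4asKO at its main peak (chr16:17132262-17132717). The group means were 231 ± 9.90 and 158.5 ± 16.3 (SD, n = 2 each), and the log2 difference was -0.54 ± 0.15 (SE, limma, adjusted p = 0.112). This was the largest decrease among tested member peaks after *Chac1*. limma called it with equal library medians (adjusted p = 0.0243) and with values weighted by reads (adjusted p = 0.0310), but not on the values as deposited.

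*Hyou1*, the nucleotide exchange factor of BiP, had 133 and 140 normalised reads in the controls and 100 and 119 in Taf4asKO. *Dnajc3*, a co-chaperone that also inhibits eIF2 kinases, had 130 and 157 in the controls and 106 and 117 in Taf4asKO. Both were lower in Taf4asKO without overlap, at adjusted p-values of 0.340 and 0.302 by limma.

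The remaining chaperone peaks were weak. *Creld1*, which encodes a membrane protein with EGF-like domains, had 40 and 42 normalised reads in the controls and 46 and 47 in Taf4asKO at the start. A second *Creld1* peak 2083 bases upstream had 29 and 26 in the controls and 22 and 22 in Taf4asKO, so that the 2 peaks of this gene differed in opposite directions. *Dnajb9*, a co-chaperone that targets misfolded proteins and restrains IRE1, had 24 and 36 in the controls and 25 and 30 in Taf4asKO. Its peak lay 189 bases downstream of the start in an annotated UTR, and the genotypes overlapped.

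For disulfide formation, the peaks of *P4hb* and *Pdia4* ranked next to that of *Eif2ak3* as the strongest of all members. *P4hb*, the classical protein disulfide isomerase, had 473 and 447 normalised reads in the controls and 378 and 419 in Taf4asKO, with a log2 difference of -0.21 ± 0.12 (SE, limma, adjusted p = 0.373). The pentamers in the centre of its peak lay downstream of the start, at 123 and 155. *Pdia4* had 435 and 391 in the controls and 332 and 381 in Taf4asKO, with a log2 difference of -0.21 ± 0.13 (SE, limma, adjusted p = 0.399). Both genes were lower in Taf4asKO without overlap, with log2 differences of -0.13 at *P4hb* and -0.11 at *Pdia4* without Taf4asKO replicate 1. That of *Pdia4* was -0.14 without control replicate 1. Per 100 bases of peak, *P4hb* had 82.9 normalised reads and *Eif2ak3* 79.4, the highest levels among members.

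ER-associated degradation exports misfolded proteins to the cytosol for destruction, and 13 peaks of its genes were tested, with a median log2 difference of -0.12. *Vcp*, the ATPase that pulls substrates out of the membrane, had 356 and 378 normalised reads in the controls and 290 and 301 in Taf4asKO, with a log2 difference of -0.31 ± 0.12 (SE, limma, adjusted p = 0.226). *Sel1l*, the scaffold of the HRD1 ubiquitin ligase, had 321 and 342 in the controls and 242 and 276 in Taf4asKO, with a log2 difference of -0.36 ± 0.13 (SE, limma, adjusted p = 0.207). *Os9*, a lectin that delivers glycoproteins to this ligase, had 232 and 228 in the controls and 182 and 208 in Taf4asKO, with a log2 difference of -0.24 ± 0.14 (SE, limma, adjusted p = 0.389). These 3 strongest peaks of the group were lower in Taf4asKO without overlap. Without Taf4asKO replicate 1 the log2 difference of *Os9* was -0.14.

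*Syvn1*, which encodes HRD1 itself and had an ER stress element 42 bases upstream of the start, had 126 and 95 normalised reads in the controls and 89 and 89 in Taf4asKO. *Ufd1*, a cofactor of VCP with 4 pentamers in the centre of its peak, had 119 and 127 in the controls and 100 and 99 in Taf4asKO. Both were lower in Taf4asKO without overlap, and their adjusted p-values by limma were 0.435 and 0.356.

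*Selenos* and *Selenok*, selenoproteins that bind the derlin and VCP machinery, overlapped between genotypes. *Selenos* had 141 and 163 normalised reads in the controls and 127 and 152 in Taf4asKO. *Selenok* had 77 and 95 in the controls and 74 and 79 in Taf4asKO.

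*Edem1* and *Edem3* encode mannosidase-like proteins that mark glycoproteins for degradation. *Edem1* had 142 and 127 normalised reads in the controls and 126 and 156 in Taf4asKO, with overlap. *Edem3* had 94 and 59 in the controls and 100 and 103 in Taf4asKO. Both Taf4asKO values lay above the controls. The log2 difference of *Edem3* was 0.11 without control replicate 2 and 0.77 without control replicate 1.

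The derlins form part of the channel for export. *Derl3* had 125 and 65 normalised reads in the controls and 120 and 145 in Taf4asKO (chr10:75893013-75893452), with a log2 difference of 0.54 ± 0.27 (SE, limma, adjusted p = 0.322). The genotypes overlapped. The log2 difference was 0.077 without control replicate 2, the lowest library, and 1.01 without control replicate 1. *Derl1* had 45 and 36 in the controls and 42 and 57 in Taf4asKO. The peak assigned to *Derl2* was weak, with 6, 7, 6 and 10 normalised reads, but a peak 406 bases downstream of its start that the table gave to *Mis12* had 420 and 470 in the controls and 360 and 385 in Taf4asKO.

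*Herpud1*, a membrane protein that organises the HRD1 complex, had 77 and 78 normalised reads in the controls and 73 and 74 in Taf4asKO at the start. Its second peak, 5884 bases downstream of the start in an annotated UTR, had 26 and 16 in the controls and 21 and 23 in Taf4asKO. The start peak was lower in Taf4asKO by 5.16% on average, the smallest shift among start peaks whose values did not overlap.

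Of the sensors, transcription factors and proteases, 5 of 9 genes had a peak. *Eif2ak3*, the sensor kinase PERK, had 584 and 597 normalised reads in the controls and 440 and 490 in Taf4asKO (chr6:70843939-70844603), the highest values of any member. The group means were 590.5 ± 9.19 and 465 ± 35.4 (SD, n = 2 each), and the log2 difference was -0.35 ± 0.11 (SE, limma, adjusted p = 0.160). With equal library medians limma called this peak (adjusted p = 0.0362). An exact two-sided permutation test of these 4 values gave p = 0.3333, the smallest that 2 libraries per genotype allow. The peak held 559, 183, 1020 and 720 reads in the order control 1, control 2, Taf4asKO 1 and Taf4asKO 2.

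*Atf4* and *Ddit3* encode the transcription factors ATF4 and CHOP, which act in sequence below PERK. *Atf4* had 130 and 127 normalised reads in the controls and 95 and 98 in Taf4asKO, with a log2 difference of -0.41 ± 0.16 (SE, limma, adjusted p = 0.231), the largest decrease among tested member peaks after *Chac1* and *Sdf2l1*. *Ddit3* had 164 and 189 in the controls and 129 and 136 in Taf4asKO, at an adjusted p of 0.216 by limma. The 2 genotypes were apart at both genes, and neither peak passed the threshold.

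*Atf6b*, a relative of ATF6, had 162 and 124 normalised reads in the controls and 112 and 126 in Taf4asKO. *Xbp1* had 52 and 39 in the controls and 49 and 44 in Taf4asKO in a peak in an annotated UTR 198 bases downstream of the start used by the table, where its ER stress element lies. The genotypes overlapped at both genes. The genes of the other ER membrane sensors, *Ern1* and *Atf6*, had no peak.

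Among targets of the PERK arm, *Chac1*, a glutathione-degrading enzyme induced through ATF4, had the largest decrease of any tested member peak. It had 117 and 111 normalised reads in the controls and 72 and 69 in Taf4asKO (chr2:119350946-119351274), or 114 ± 4.24 and 70.5 ± 2.12 (SD, n = 2 each). The Taf4asKO mean was lower by 38.2%, with a log2 difference of -0.69 ± 0.18 (SE, limma, adjusted p = 0.106). limma called this peak when only peaks with a mean of at least 20 were tested (adjusted p = 0.0477), and with each library scaled to the same median (adjusted p = 0.0214) or each value weighted by its reads (adjusted p = 0.0191). *Ppp1r15b*, a regulatory subunit of the phosphatase that reverses eIF2 phosphorylation, had 55 and 36 in the controls and 56 and 66 in Taf4asKO. Both Taf4asKO values lay above the controls, by 0.44 on the log2 scale. This was 0.14 without control replicate 2 and 0.74 without control replicate 1.

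Translocation and signal peptide cleavage had peaks at 2 of 11 genes, both weak. *Spcs3*, a signal peptidase subunit, had 27 and 26 normalised reads in the controls and 35 and 41 in Taf4asKO, with a log2 difference of 0.50 ± 0.26 (SE, limma, adjusted p = 0.330), the largest increase among tested member peaks after the *Hspa5* peak away from the start and *Derl3*. *Ssr3*, a subunit of the translocon-associated complex, had 48 and 33 in the controls and 33 and 37 in Taf4asKO. The genotypes were apart at *Spcs3* and overlapped at *Ssr3*.

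Of the 7 member peaks with the first form of the ER stress element in the centre, 5 had a log2 difference below 0. Over all tested peaks 53.8% did, and over those that averaged 100 or more 84.7% did. The log2 differences of *Hspa5*, *Calr*, *Canx*, *Dnajc3* and *Syvn1* ranged from -0.24 at *Calr* to -0.36 at *Dnajc3*, that of *Xbp1* was 0.04 and that of *Derl3* was 0.54. Without control replicate 2 that of *Xbp1* was -0.16 and that of *Derl3* was 0.077, and with equal library medians that of *Xbp1* was -0.080. That of *Dnajc3* was -0.22 without control replicate 2, and that of *Syvn1* was -0.093 without control replicate 1 and -0.50 without control replicate 2. None of the 7 was called by limma, and the lowest adjusted p among them was 0.278 at *Canx*.

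Another 81 genes of ER proteostasis, among them oligosaccharyltransferase, signal recognition, glycan-trimming and vesicle coat genes, were examined in the same way. Of these, 25 had a start peak (30.9%), with 30 peaks in all. The pentamer was in the centre of 24 of the 30, and neither form of the ER stress element was found in any of them. limma called 0 of the 29 tested peaks, with 2 at an unadjusted p under 0.05, and their median log2 difference was -0.05. *Creb3l2*, a membrane-bound transcription factor, had 208 and 254 normalised reads in the controls and 153 and 192 in Taf4asKO. *Sesn2*, a stress-induced gene, had 147 and 127 in the controls and 200 and 207 in Taf4asKO at a peak 5130 bases from its start, with a log2 difference of 0.57 ± 0.15 (SE, limma, adjusted p = 0.110). In these 2 peaks the genotypes were apart, in opposite directions.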

How the data were processed

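Read pairs of 36 bases were trimmed (Trimmomatic 0.39), aligned to mm10 (STAR 2.7.11a) and freed of duplicates (Picard 3.1.1) by the authors, with versions as in the submitters' processing notes. They called peaks per NF-YA library against IgG with MACS, merged them, counted reads with featureCounts and assigned the nearest gene start within about 10000 bases. The deposited table holds a score, the count of reads in each peak normalised by the authors with DESeq2 1.36.0 and rounded to whole numbers. Groups came from the labels.

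The members and lists were chosen with earlier results of these data known. Because the values were normalised, no count model was used. limma 3.58.1 (R 4.3.3, trended variance) was fitted to log2(value + 1) for peaks averaging 10 or more, and p-values were adjusted over all 4746 tested peaks with the Benjamini-Hochberg method. Log2 differences understate changes of weak peaks. The worth of 1 read in each library was recovered from the steps between values. Rounding hides single reads in both Taf4asKO libraries, and whole reads were therefore not used. Of the assigned gene IDs, 3951 of 3978 had identical coordinates in GENCODE M21 on GRCm38, from which motifs and sequences were read. RefSeq promoters (GRCm38.p6) matched 51 of 60 members. Values are given for every tested member peak, and statistics for the 10 strongest and the 3 largest increases and decreases. Other statistics and the sequences beyond the elements in peaks and the strongest peaks were chosen after values were seen. Alternatives were other scalings, minimums, pseudocounts, weights, thresholds, a replicate block and leaving out each library. Python 3.11.15, pandas 2.3.3, scipy 1.17.1, pysam 0.24.0 and matplotlib 3.10.9 were used.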

Additional observations from a re-analysis of the deposited data

How the results depend on the processing

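The number of member peaks called by limma was 4 with equal library medians (*Chac1*, *Eif2ak3*, *Manf* and *Sdf2l1*, all lower in Taf4asKO), 2 with values weighted by reads (*Chac1* and *Sdf2l1*) and 1 with a minimum mean of 20 (*Chac1*). It stayed at 0 with equal totals, no minimum, a pseudocount of 5, an adjusted p under 0.1 and without each library, where a lone library was assumed to vary like the other genotype. At an unadjusted p under 0.05 limma gave 19 member peaks with equal medians, 10 each with equal totals, a minimum of 20 and weights, 8 with no minimum, 9 with a pseudocount of 5, 9 with the replicate block and 3 to 7 without 1 library. The share of all tested peaks at this level was 25.3% with equal medians, 19.1% with equal totals, 19.9% with a minimum of 20, 21.3% with weights, 14.1% with no minimum, 18.5% with a pseudocount of 5, 15.8% with the replicate block and 4.81% to 22.6% without 1 library. Calls over all peaks were 45, of which 29 were lower in Taf4asKO. They were 314 with equal medians (259 lower), 61 with equal totals (31 lower), 329 with weights, 126 with a minimum of 20, 131 at an adjusted p under 0.1 and 0 with no minimum or without any 1 library. With the replicate block, limma called 0 member peaks and 31 peaks in all (28 lower). The labels do not say what a number shares, and with 2 pairs none was established (correlation of deviations -0.09 over tested peaks and 0.26 over those averaging 100 or more).

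The median log2 difference of member peaks was -0.35 with equal medians, where all tested peaks moved to -0.17, and -0.082 with equal totals, where they moved to 0.10. Without 1 library it ranged from -0.30 to -0.12. Beyond 2-fold there was 1 of 36 member peaks with equal totals. Of all 4731 peaks with a mean above 10 in that setting, 323 were higher in Taf4asKO and 99 lower. Beyond 1.5-fold there were 2 member peaks, where 549 of all 4689 peaks were higher and 453 lower. With 1 mismatch in CCACG, 15 member peaks (35.7%) had the element, against 2.67% of all peaks.

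Some small differences changed sign. With equal medians *Edem1* had -0.064, *Xbp1* -0.080 and the peak of *Herpud1* away from the start -0.019. With equal totals *Selenos* had 0.019, the *Herpud1* start 0.068, *Dnajb9* 0.040 and *Dnajb11* 0.029. With weights *Xbp1* had -0.051 and the *Herpud1* peak away from the start -0.11. Without 1 library the ranges that included both signs were -0.45 to 0.080 at *Ssr3*, -0.091 to 0.21 at *Edem1*, -0.25 to 0.0037 at *Selenos*, -0.23 to 0.43 at *Herpud1* away from the start, -0.16 to 0.25 at *Xbp1*, -0.38 to 0.18 at *Dnajb9* and -0.25 to 0.017 at *Dnajb11*. The cause was not tested. Depth differed between libraries, with a median of 4.91 reads per peak in control replicate 2 and 41.7 in Taf4asKO replicate 1.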
